A study of Mus musculus with 18 samples.

Results

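The genes described here are 10 direct transcriptional targets of p53, measured in mouse liver: Cdkn1a, Ccng1, Zmat3 and Sesn2, which act in cell cycle arrest and growth control, Mdm2, which feeds back on p53, and Bax, Eda2r, Tnfrsf10b, Phlda3 and Trp53inp1, which act in cell death and survival. They were taken by gene symbol, but the list was chosen with earlier results of these data known. All 10 of 10 were among the 17721 genes tested. Eda2r and Tnfrsf10b passed the filter on dim probes through Nrf1 CKO alone, where they were well above background, so a difference of these 2 genes from that group was built into the filter and is given with that limit. RNA came from livers of female mice aged 6 weeks, in 6 groups of 3 samples with 1 single-colour array each. In the Nrf1 line, Nrf1 CKO mice had the genotype Nrf1(dN/-)::Alb-Cre, in which Cre recombinase is driven by the albumin promoter, active in hepatocytes, and their controls were Nrf1(dN/+). In the Nrf2 line, Nrf2 KO mice were Nrf2(-/-) and their controls Nrf2(+/+). In the Keap1 line, Keap1 KD mice were Keap1(Kd/-) and their controls Keap1(Kd/+). Both groups of the Nrf1 line thus carried the dN allele and both groups of the Keap1 line the Kd allele, and Alb-Cre is named for Nrf1 CKO alone. The strain was mixed in the Nrf1 and Keap1 lines and C57BL/6 in the Nrf2 line. Nothing in the labels says whether the 3 samples of each group came from different mice, and the p-values therefore describe only how far these samples vary, perhaps for technical reasons.

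p53, encoded by Trp53, is a transcription factor that is held at a low level by the ubiquitin ligase MDM2 and accumulates after DNA damage and other stress. It then switches on genes that halt the cell cycle, genes that sensitise cells to death, and Mdm2 itself, which closes a negative feedback loop. NRF1 (gene Nfe2l1) and NRF2 (Nfe2l2) are related factors that act through antioxidant response elements in DNA, and KEAP1 marks NRF2 for degradation. In the liver, p21, the product of Cdkn1a, restrains hepatocytes from entering the cell cycle.

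Promoter sequences of 7 of the 10 genes were in the RefSeq table (build GRCm38.p6), and they are shown because the members are grouped by a shared regulator whose binding motif can be looked for in them. Zmat3, Trp53inp1 and Tnfrsf10b were not among them. In the 250 bases before the transcription start, the decamer that p53 response elements hold in pairs was found in Cdkn1a, Mdm2, Ccng1 and Bax, and in 7.13% of all 32851 promoters of the table. The search covered both strands, on which this decamer reads alike. Only Cdkn1a among the members, at the first of its 2 starts, had a pair of decamers at most 13 bases apart, which 0.0639% of all promoters had. The decamers are in capitals in the following sequences, each printed 5′ to 3′ on the strand of the gene; the Cdkn1a sequence lies at chr17:29090729-29090978 (+), and the windows of Mdm2, Ccng1 and Bax at chr10:117710910-117710969 (-), chr11:40755437-40755496 (-) and chr7:45467065-45467124 (-).
Cdkn1a: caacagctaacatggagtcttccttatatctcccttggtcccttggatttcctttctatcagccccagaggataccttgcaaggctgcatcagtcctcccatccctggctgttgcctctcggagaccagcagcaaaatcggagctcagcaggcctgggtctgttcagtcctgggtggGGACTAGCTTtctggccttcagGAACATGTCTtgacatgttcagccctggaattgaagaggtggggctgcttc
Mdm2: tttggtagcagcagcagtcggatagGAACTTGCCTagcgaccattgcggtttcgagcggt
Ccng1: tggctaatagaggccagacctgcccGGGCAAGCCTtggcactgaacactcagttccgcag
Bax: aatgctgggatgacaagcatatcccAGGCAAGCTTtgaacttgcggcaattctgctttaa
The decamers of Cdkn1a lay 73 to 64 and 51 to 42 bases before its first start. Its second start had no decamer in the 250 bases before it (chr17:29093519-29093768, +). The decamers lay 186 to 177 bases before the start of Mdm2, 185 to 176 before that of Ccng1 and 201 to 192 before that of Bax. Eda2r, whose signal differed most of the 10 genes between Nrf1 CKO and its controls, is shown for contrast (chrX:97377210-97377459, -). It held no decamer in this window. The capitals in its sequence mark a match to the antioxidant response element core TGACNNNGC, which 10.2% of all promoters held, and to the TATA box TATAAA, which 12.4% held (both searched on both strands).
Eda2r: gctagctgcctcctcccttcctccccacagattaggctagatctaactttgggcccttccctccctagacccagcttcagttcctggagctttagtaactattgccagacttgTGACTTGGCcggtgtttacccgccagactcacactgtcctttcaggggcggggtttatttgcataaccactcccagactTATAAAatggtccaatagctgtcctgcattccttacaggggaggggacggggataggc
The antioxidant response element core was also found in Sesn2. These are matches of letters in a short window, and no binding was measured.

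On each array 50% to 65.0% of the 43379 probe spots gave a signal well above background, and within a group the samples' values had correlations of 0.973 to 0.991 across genes. The number of arrays limits the precision. The targeted genes fell in their own lines: Nfe2l1 was at least 470-fold lower in Nrf1 CKO, Nfe2l2 differed by −8.20 (log2) in Nrf2 KO, with 1 KO array above background, and Keap1 by −2.39 in Keap1 KD. The 11 hepatocyte markers tested were above background on all 18 arrays. In bulk liver RNA, fewer cells of a type and less RNA per cell cannot be told apart. The array slide moved with the groups of the Nrf1 line. Nrf1 CKO 1, 2 and 3 and Nrf1 Control 3 were on slide 2, and Nrf1 Control 1 and 2 on slide 1, so a comparison within a slide rests on 1 control.

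The first comparison asked what loss of NRF1 in hepatocytes did to the p53 targets. Of the 10 genes, 7 were higher in Nrf1 CKO than in controls and 0 were lower (limma, adjusted p under 0.05 over all genes; 8 and 0 at an unadjusted p under 0.05). Of all genes tested, 7.96% were called higher and 11.0% lower (1410 and 1954 genes, or 1539 and 1254 after quantile normalization). Apart from Eda2r and Tnfrsf10b, which the filter on dim probes favoured, 5 of 8 were called. The genes called higher were Ccng1 and Zmat3 of the arrest group, Mdm2, and Bax, Eda2r, Tnfrsf10b and Phlda3 of the death group. All 10 log2 differences were positive, with a median of 1.35, against −0.09 for all genes tested. In 9 of the 10 genes every CKO array lay above every control array, as in 15.2% of all genes tested. Eda2r and Tnfrsf10b are among these 9 genes, the positive differences and the median, and their rise was built into the filter. With slide as a block, which leaves 1 control on the slide of the CKO samples, 0 of 10 were called (8 higher and 0 lower at an unadjusted p under 0.05; 0.231% of all genes were called higher and 0.135% lower), and the adjusted p of the 7 genes ran from 0.0608 (Phlda3) to 0.293 (Zmat3).

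**Figure D1:**
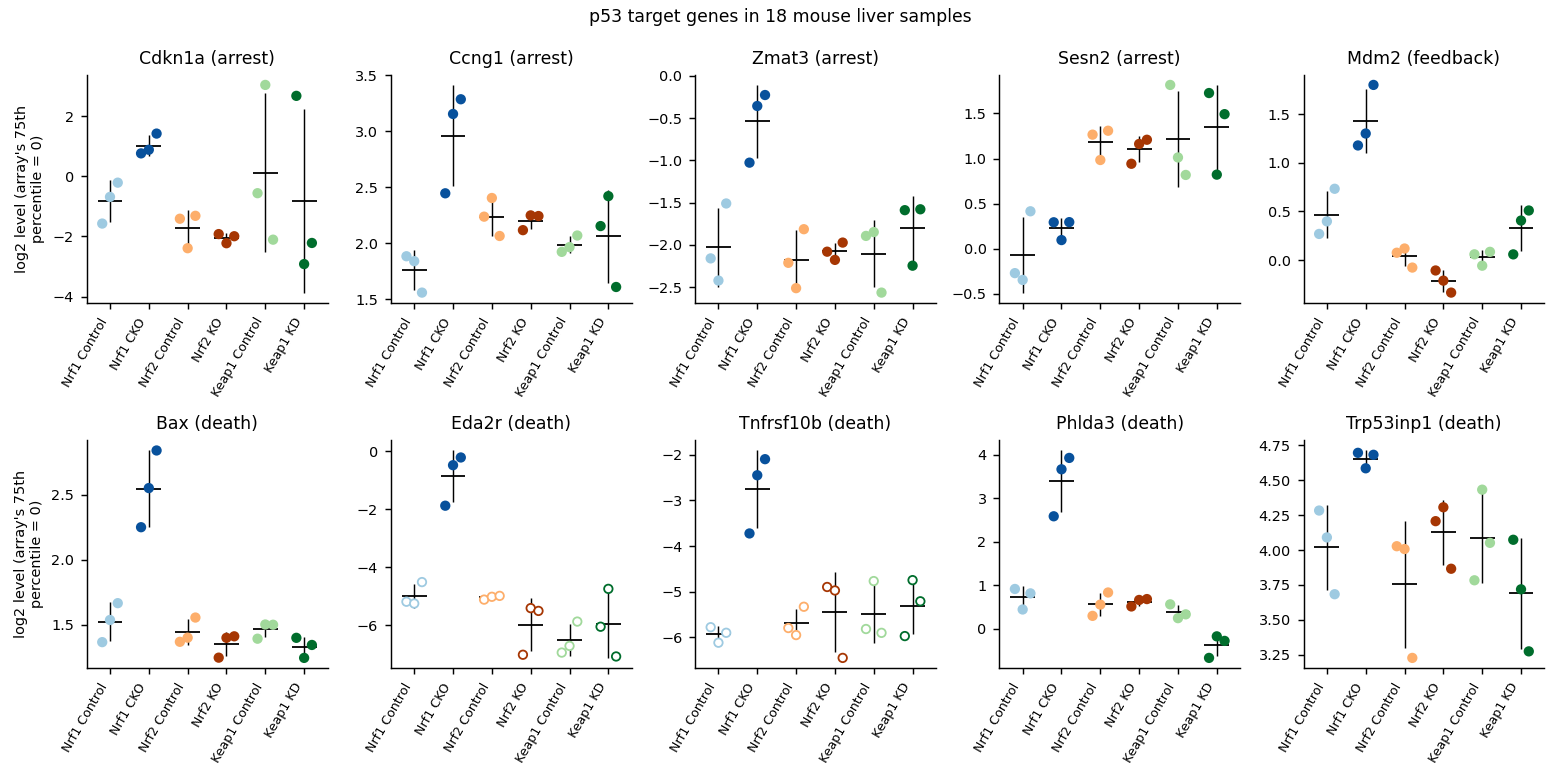
Level of each of the 10 p53 target genes on each of 18 arrays, as log2 of the signal over the array's 75th percentile (y axis, own scale for each gene), by group (x axis). Points are arrays, lines are the group mean and its SD, and open points were not well above background. The CKO points lie above the Nrf1 control points for every gene but Sesn2, which for Eda2r and Tnfrsf10b was built into the filter. Cdkn1a has 1 high point in each Keap1 group.

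Among the arrest genes, Ccng1 and Zmat3 rose, and Cdkn1a and Sesn2 did not pass the test. Ccng1, which encodes cyclin G1, an inhibitor of p53 signalling through MDM2, had levels (log2 of the signal over the array's 75th percentile, which is thus 0) of 1.88, 1.84 and 1.56 in Nrf1 controls 1, 2 and 3 and of 2.45, 3.16 and 3.29 in Nrf1 CKO 1, 2 and 3. The groups did not overlap, and Ccng1 rose by 1.20 (SE 0.22, 2.30-fold, limma adjusted p = 0.00363, n = 3). Its second probe gave 1.02 and was called as well.

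Zmat3, an RNA-binding zinc finger protein, had levels of −2.16, −2.42 and −1.51 in the controls and −1.03, −0.36 and −0.23 in Nrf1 CKO. No control reached a CKO array, although Control 3 lay close to CKO 1, and Zmat3 rose by 1.49 (SE 0.29, 2.82-fold, limma adjusted p = 0.0046). Against Control 3, which shared the slide of the CKO samples, the difference was 0.97.

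Cdkn1a had levels of −1.57, −0.68 and −0.21 in the controls and 0.76, 0.88 and 1.42 in Nrf1 CKO. The CKO arrays were all above the controls, but the difference of 1.84 (SE 1.24, 95% interval −0.79 to 4.48) did not pass the test (limma adjusted p = 0.309). Its error is pooled over all 18 arrays, and Cdkn1a varied widely in the Keap1 line. With the 6 arrays of the Nrf1 line alone the adjusted p was 0.0339, and with array quality weights 0.0304 (difference 2.03).

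Sesn2, which encodes sestrin 2, a restraint on mTORC1 that is also known as a target of NRF2, had levels of −0.27, −0.35 and 0.42 in the controls and 0.29, 0.10 and 0.30 in Nrf1 CKO. The groups overlapped, and the difference was 0.30 (95% interval −0.29 to 0.88, limma adjusted p = 0.476) and −0.19 within slide 2. In the other lines Sesn2 was at 0.82 to 1.82 on all 12 arrays, above all 6 arrays of the Nrf1 line. By the labels the strain was mixed in both the Nrf1 and Keap1 lines. The Nrf1 line had slides and a scan date of its own, which cannot be told apart from the line here.

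Mdm2 had levels of 0.27, 0.40 and 0.73 in the controls and 1.18, 1.30 and 1.80 in Nrf1 CKO. The groups did not overlap, and Mdm2 rose by 0.96 (SE 0.18, 1.95-fold, limma adjusted p = 0.00373). A dimmer Mdm2 probe, printed in 10 spots per array, gave 0.69 and was not called (adjusted p = 0.073 over all probes tested), so the call depends on the probe.

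Of the members above background in the controls, the death gene Phlda3 had the largest difference. The death genes Bax and Trp53inp1 differed by less than Cdkn1a, Zmat3 and Ccng1. Phlda3, whose product competes with AKT for membrane lipids and so dampens survival signalling, had levels of 0.91, 0.44 and 0.81 in the controls and 2.58, 3.66 and 3.93 in Nrf1 CKO. Every CKO array was far above every control, and Phlda3 rose by 2.67 (SE 0.28, 6.36-fold, limma adjusted p = 0.000107). Within slide 2 the difference was 2.58.

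Eda2r, a receptor of the tumour necrosis factor receptor family that binds ectodysplasin A2, was not well above background on any of the 15 arrays outside Nrf1 CKO. In Nrf1 CKO it had levels of −1.88, −0.49 and −0.22, against measured values of −5.19, −5.25 and −4.51 in the controls. The signal was at least 12.3-fold higher in Nrf1 CKO, where the bound sets the CKO mean against the lowest signal well above background on each control array. The limma adjusted p of 0.000697 belongs to the fit on the measured values and not to the bound. This call was built into the filter on dim probes. The other 2 Eda2r probes were too dim to be tested, with 1 CKO array above background between them.

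Tnfrsf10b, the mouse receptor for the death ligand TRAIL, was, on the probe used, also below background on those 15 arrays. Its levels were −3.73, −2.45 and −2.10 in Nrf1 CKO, against measured values of −5.78, −6.12 and −5.90 in the controls. The signal was at least 3.45-fold higher. The limma adjusted p of 0.00113 belongs to the fit on the measured values, and this call too was built into the filter. A second probe behaved alike (3.14 on the log2 scale against 3.17), and the third was too dim to be tested, with 1 CKO array and 1 Keap1 control above background.

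Bax, which encodes a pore-forming protein of the outer mitochondrial membrane, had levels of 1.37, 1.54 and 1.67 in the controls and 2.25, 2.55 and 2.84 in Nrf1 CKO. The groups did not overlap, and Bax rose by 1.02 (SE 0.15, 2.03-fold, limma adjusted p = 0.00103). Trp53inp1, a p53-induced nuclear protein that promotes autophagy and cell death, was at 4.28, 4.09 and 3.68 in the controls and at 4.69, 4.58 and 4.68 in Nrf1 CKO. Its groups did not overlap either, but the difference of 0.63 (95% interval 0.09 to 1.18) did not pass the test (limma adjusted p = 0.0916). It passed after quantile normalization (0.92, adjusted p = 0.0213), after normexp background correction (0.86, adjusted p = 0.0248) and with array quality weights (0.50, adjusted p = 0.0434).

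By role, 2 of 4 arrest genes, the feedback gene and 4 of 5 death genes were called higher, or 2 of 3 death genes apart from Eda2r and Tnfrsf10b, whose calls were built into the filter. The median difference was 1.35 in the arrest genes and 2.67 in the death genes, or 1.79 with Eda2r and Tnfrsf10b set at their bounds. Apart from Eda2r and Tnfrsf10b, the death genes were at 2.67 (Phlda3), 1.02 (Bax) and 0.63 (Trp53inp1). Their middle value thus lay below the arrest median, and the order of the roles depends on the genes built into the filter. No test was made between roles, since they hold few genes that were chosen with earlier results known.

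**Figure D2:**
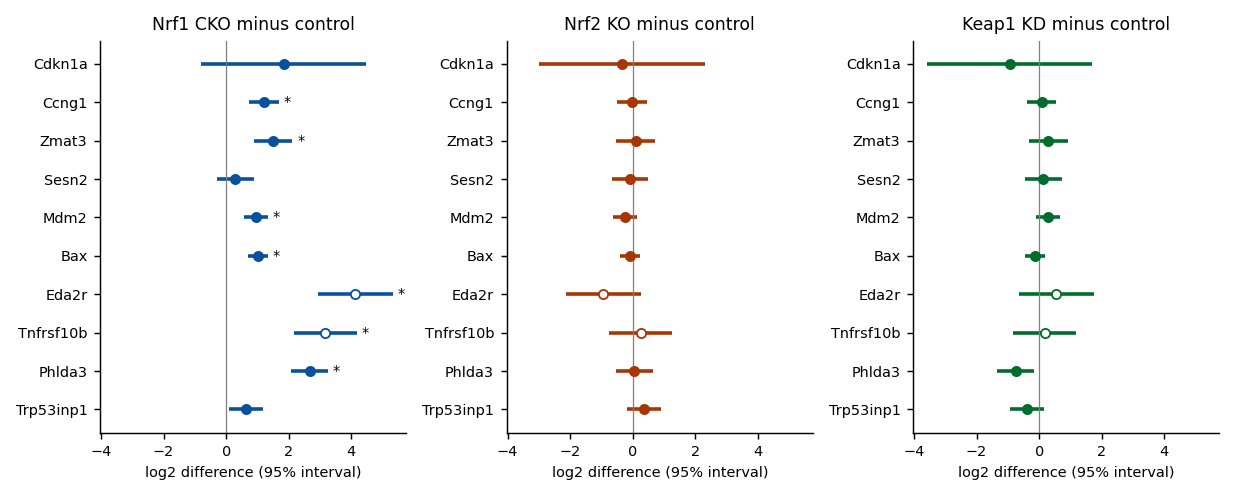
Difference between each mutant group and its own control for the 10 genes, on the log2 scale (x axis), with the 95% interval of the limma fit; arrest genes are listed first, then Mdm2, then death genes. Asterisks mark an adjusted p under 0.05 and open circles genes with at least 1 group not above background. The 7 asterisks are all in Nrf1 CKO, and Cdkn1a has the widest interval in each panel.

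Among the CKO samples, the levels were lowest in Nrf1 CKO 1. It was the lowest of the 3 CKO arrays for 7 of the 7 genes called higher and for 8 of all 10. The same array was lowest for 1057 of the 1410 genes called higher in Nrf1 CKO and for 33.5% of all genes tested. The mean level of the 10 genes was 0.76, 1.29 and 1.57 in Nrf1 CKO 1, 2 and 3 and −0.62, −0.65 and −0.33 in the controls. This mean includes Eda2r and Tnfrsf10b, which were below background in the controls, so the gap between the groups is not a measured size. The count of 7 was found again when any 1 array of the Nrf1 line was left out.

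Trp53 itself was not called in Nrf1 CKO. Its levels were −1.57, −1.82 and −0.52 in the controls and −0.89, −0.87 and −1.09 in Nrf1 CKO, with Control 3 above all CKO arrays. The difference was 0.35 (SE 0.25, limma adjusted p = 0.343), and 0.74 (adjusted p = 0.0134) without Nrf1 Control 3. It was 0.55 (adjusted p = 0.0212) with array quality weights and turned to −0.43 (adjusted p = 0.364) with slide as a block. Mdm4, an inhibitor of p53 related to Mdm2, differed by 0.13 (adjusted p = 0.749).

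Of 15 genes tested that encode p53 itself or its regulators, 1 was higher and 3 lower in Nrf1 CKO. Among all genes tested 7.96% were called higher and 11.0% lower. Chek1, a checkpoint kinase of the DNA damage response, differed by 2.31 (SE 0.58, adjusted p = 0.0142), with 1 of the 3 control arrays above background. Cop1, a ubiquitin ligase for p53, fell by 0.69 (SE 0.14, adjusted p = 0.00621), with levels of 4.18 to 4.35 in the controls and 3.41 to 3.75 in Nrf1 CKO. Usp7, which removes ubiquitin from MDM2 and p53, fell by 0.57 (adjusted p = 0.0475), and Ppm1d, a phosphatase that damps p53 signalling, by 0.42 (adjusted p = 0.0405). With slide as a block 0 of these 15 genes were called (1 higher and 2 lower at an unadjusted p under 0.05). The count of 3 lower became 1 after scaling to the array median and 1 without Nrf1 Control 1, 2 or 3 or Nrf1 CKO 2 or 3, and the 1 higher became 0 without Nrf1 Control 1 and 3 without Nrf1 Control 3. With array quality weights 5 were higher and 5 lower.

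Of 27 further p53 targets tested, 12 rose in Nrf1 CKO, 0 were called lower and 15 did not pass the test (limma; 13 higher and 4 lower at an unadjusted p under 0.05). Among all genes tested 7.96% were called higher and 11.0% lower. The median difference of the 27 targets was 0.49, and 20 of the 27 differences were positive. Psrc1, which encodes a microtubule-associated protein of the mitotic spindle, had levels of −3.79, −3.23 and −2.64 in the controls and −0.22, 0.96 and 1.41 in Nrf1 CKO and rose by 3.94 (SE 0.55, adjusted p = 0.000782). Ddit4l, an inhibitor of mTORC1 signalling, was at −2.96, −2.65 and −2.58 in the controls and −0.47, 1.50 and 1.89 in Nrf1 CKO and rose by 3.70 (SE 0.44, adjusted p = 0.000322). In both genes the CKO arrays were clear of the controls and CKO 1 was the lowest of them.

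Gdf15, a stress-induced secreted factor, rose by 2.03 (SE 0.44), from 2.31 to 3.54 in the controls to 4.81 to 5.39 in Nrf1 CKO. Aen, a nuclease that promotes apoptosis, rose by 1.39, the kinase gene Plk2 by 1.30 and Pmaip1, which encodes the death protein NOXA, by 1.26. Ckap2, a spindle protein, and Ak1, an adenylate kinase, were also called (2.93 and 1.65), with only 1 and 2 control arrays above background. The 4 other genes called were Polk, a polymerase that copies past DNA damage, Dglucy, Apaf1, which builds the apoptosome, and Tigar, at 0.80 to 1.13. Classic targets were among the 15 not called: Bbc3, which encodes PUMA, was at −0.03, Perp at 0.03, Fas at 0.11, Gadd45a at 0.49 and Btg2 at 1.08 (adjusted p = 0.094), names chosen after their values were seen. With slide as a block 0 of 27 were called (10 higher and 0 lower at an unadjusted p under 0.05), and without Nrf1 Control 1, CKO 2 or CKO 3 the count of 12 became 7 each time. The 0 called lower became 1 or more under 8 of 21 alternatives, with 4 under array quality weights and 2 without Nrf1 Control 3. Sesn1, Ei24 and Xpc, also named after their values were seen, were lower on every CKO array than on every Nrf1 control.

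**Figure D3:**
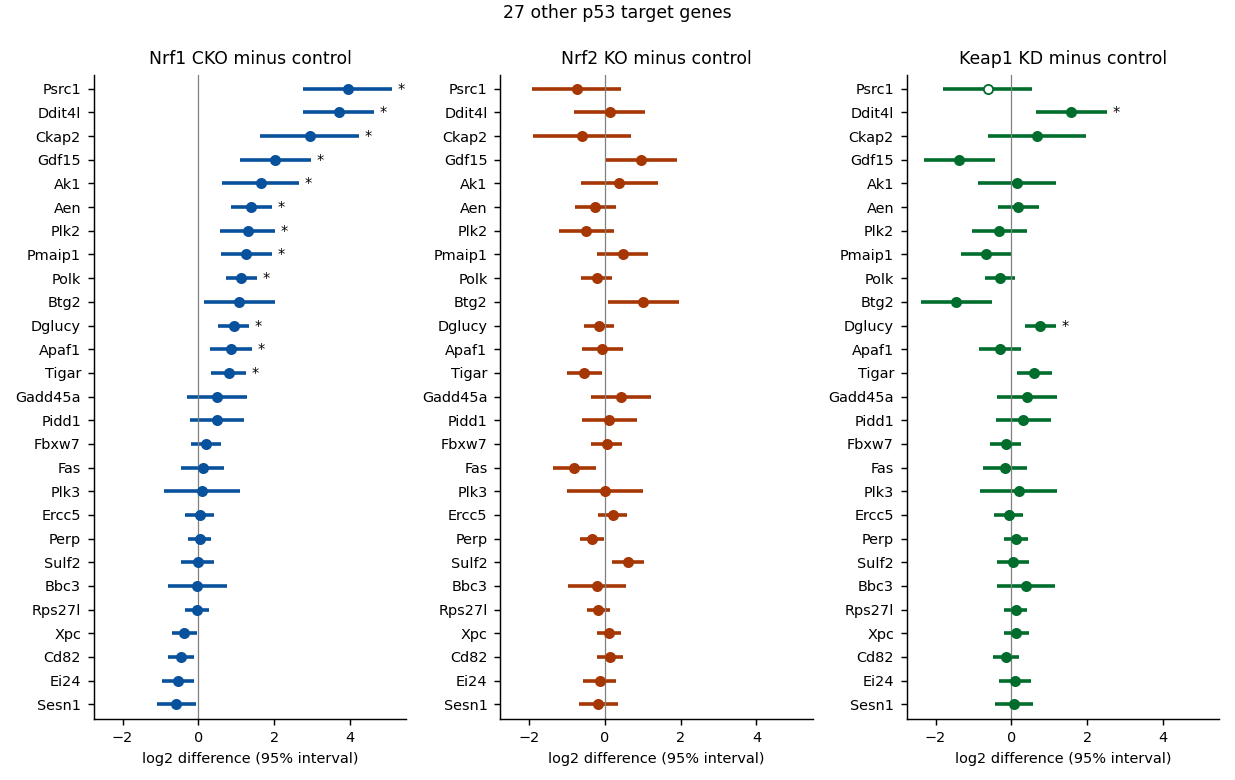
Difference between each mutant group and its own control for 27 further p53 targets, on the log2 scale (x axis), with the 95% interval of the limma fit, ordered by the difference in Nrf1 CKO. Asterisks mark an adjusted p under 0.05 and open circles genes with at least 1 group not above background. There are 12 asterisks in Nrf1 CKO, 0 in Nrf2 KO and 2 in Keap1 KD.

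Other gene groups were counted in the same samples, where 7.96% of all genes tested were called higher in Nrf1 CKO and 11.0% lower. Of 23 cell division genes, 19 were higher in Nrf1 CKO and 0 lower, with a median of 2.08 (1.94 with Aurkb and Ccne2 at their bounds). Their mean level was −1.14 to −0.50 in the controls and 1.07, 0.75 and 0.85 in Nrf1 CKO 1, 2 and 3, so that CKO 1, the lowest sample for the p53 targets, was the highest for this list. Of 17 stress genes of ATF4 and CHOP, 3 were higher, led by Atf3 at 3.42, and 2 lower. Of 11 hepatocyte markers 6 were lower, with a mean level of 6.93 to 7.18 in the controls and 6.03 to 6.70 in Nrf1 CKO. Of 14 stellate cell and fibroblast markers 11 were higher (mean level 0.90 to 1.01 against 1.59 to 2.21).

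Of 11 macrophage markers 4 were higher and 1 lower (mean level 0.43 to 1.13 against 1.40 to 2.41). Trem2, a receptor of lipid-associated macrophages, rose by 4.15 and Gpnmb was below background in the controls. CKO 1 was the highest of the CKO arrays for the hepatocyte list and the lowest for the stellate and macrophage lists. Of 8 cholangiocyte markers 0 were called (2 higher and 0 lower at an unadjusted p under 0.05; mean level −1.22 to −0.74 against −0.94 to 0.43), of 10 endothelial markers 1 was lower (1.44 to 1.57 against 1.20 to 1.40), and of 8 lymphocyte markers 1 was higher (−2.96 to −1.82 against −2.47 to −1.97). The shares called among all genes tested, to be set beside these counts, were 7.96% higher and 11.0% lower. The part of these cell types and of cell division in the rise of the p53 targets was not tested.

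The second comparison set Nrf2 KO against its controls. All Nrf2 controls were on slide 3 with scan date 2. Nrf2 KO 1, 2 and 3 were on slides 4, 5 and 6 with scan dates 3, 4 and 3. No slide or scan date was shared, so genotype cannot be told apart from slide or scan date in this line. None of the 10 genes was called, with 0 higher and 0 lower (limma; also 0 and 0 at an unadjusted p under 0.05), where 0.00564% of all genes were called higher and 0.0564% lower. The median difference was −0.06. Bax was at 1.37, 1.40 and 1.55 in the controls and 1.25, 1.40 and 1.41 in Nrf2 KO, and Ccng1 at 2.24, 2.41 and 2.07 against 2.12, 2.25 and 2.24. These groups overlapped, and the 95% intervals of the differences were −0.41 to 0.23 and −0.51 to 0.44.

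Mdm2 was at 0.08, 0.12 and −0.08 in the Nrf2 controls and at −0.11, −0.21 and −0.34 in Nrf2 KO. The KO arrays were all below the controls, as in 11.1% of all genes tested, and the difference was −0.26 (95% interval −0.64 to 0.13, adjusted p = 0.74). Sesn2, known as an NRF2 target, differed by −0.08 (95% interval −0.67 to 0.50). Phlda3 differed by 0.06, Zmat3 by 0.10, Trp53inp1 by 0.37 and Cdkn1a by −0.34, all uncalled, and Eda2r and Tnfrsf10b were below background in both groups. Of the 27 further targets 0 were called (3 higher and 3 lower at an unadjusted p under 0.05), and of the 15 genes for p53 and its regulators 0 were called (0 and 0).

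The third comparison set Keap1 KD against its controls. None of the 10 genes was called, with 0 higher and 0 lower (limma; 0 higher and 1 lower at an unadjusted p under 0.05), where 0.965% of all genes were called higher and 4.59% lower. The gene below the unadjusted threshold was Phlda3, which moved the opposite way from Nrf1 CKO. Its levels were 0.56, 0.24 and 0.33 in the controls and −0.67, −0.17 and −0.28 in Keap1 KD, without overlap, as in 11.5% of all genes tested. The difference was −0.75 (95% interval −1.34 to −0.17, adjusted p = 0.146), −0.46 after scaling to the array median and −0.61 within the slide that held 1 array of each group.

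Bax was at 1.39, 1.50 and 1.50 in the Keap1 controls and 1.40, 1.25 and 1.34 in Keap1 KD, and its difference of −0.14 turned to 0.16 after scaling to the array median. That scaling moved the median of all genes in this comparison from 0.00202 to 0.30, and with it the calls from 171 higher and 813 lower to 355 and 364. Mdm2 differed by 0.30, Zmat3 by 0.30, Sesn2 by 0.13, Ccng1 by 0.08 and Trp53inp1 by −0.40, all uncalled. Eda2r and Tnfrsf10b were below background in both groups on the probes used, although another Tnfrsf10b probe was above it on 1 control array. Of the 27 further targets, Ddit4l (1.58, SE 0.44, adjusted p = 0.0476) and Dglucy (0.76, SE 0.19, adjusted p = 0.0304) were higher in Keap1 KD and 0 were lower (3 and 2 at an unadjusted p under 0.05). Ddit4l was at −2.05, −2.24 and −1.82 in the controls and −0.96, −0.18 and −0.22 in Keap1 KD. Both calls were lost with slide or scan date as a block, after quantile normalization, and without Keap1 Control 2, Keap1 Control 3, Keap1 KD 2 or Keap1 KD 3. Of the 15 genes for p53 and its regulators 0 were called (0 higher and 1 lower at an unadjusted p under 0.05).

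Cdkn1a stood apart from the other members by its spread between samples of a group. In the Keap1 line it was at −0.56, 3.04 and −2.11 in the controls and at 2.68, −2.92 and −2.22 in Keap1 KD. Keap1 Control 2 and Keap1 KD 1 were the highest of all 18 arrays, above every Nrf1 CKO array. The SD within a group, pooled over the 6 groups, was 1.70 on the log2 scale, at percentile 99.9 of all genes tested, whose median was 0.31, and it was 2.64 in Keap1 controls and 3.05 in Keap1 KD.

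The Cdkn1a probe was printed in 10 spots on each array, and these lay close together, with an SD over spots of 0.035 on Keap1 Control 2 and 0.032 on Keap1 KD 1. These 2 arrays were on different slides with different scan dates. Bax was at 1.50 and 1.40, Phlda3 at 0.24 and −0.67 and Mdm2 at −0.06 and 0.06. Eda2r and Tnfrsf10b were not above background there on the probes used. Trp53inp1, at 4.43 on Keap1 Control 2, was the highest of the Keap1 line there. Of the 27 further targets, 4 were highest of the Keap1 line on Keap1 Control 2 (13.7% of all genes tested were) and 6 on Keap1 KD 1 (20.9% of all genes). Btg2, named after its values were seen, was at 2.56 on Keap1 Control 2, the highest of all 18 arrays, and at 1.34 and 0.07 in the other 2 Keap1 controls, but at 0.18 on Keap1 KD 1. Gdf15, also named after its values were seen, was the highest of its group on both arrays, at 3.09 and 1.78. The Keap1 effect on Cdkn1a was −0.94 (95% interval −3.58 to 1.70) and turned from −2.69 to 0.51 depending on which array of the line was left out.

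**Figure D4:**
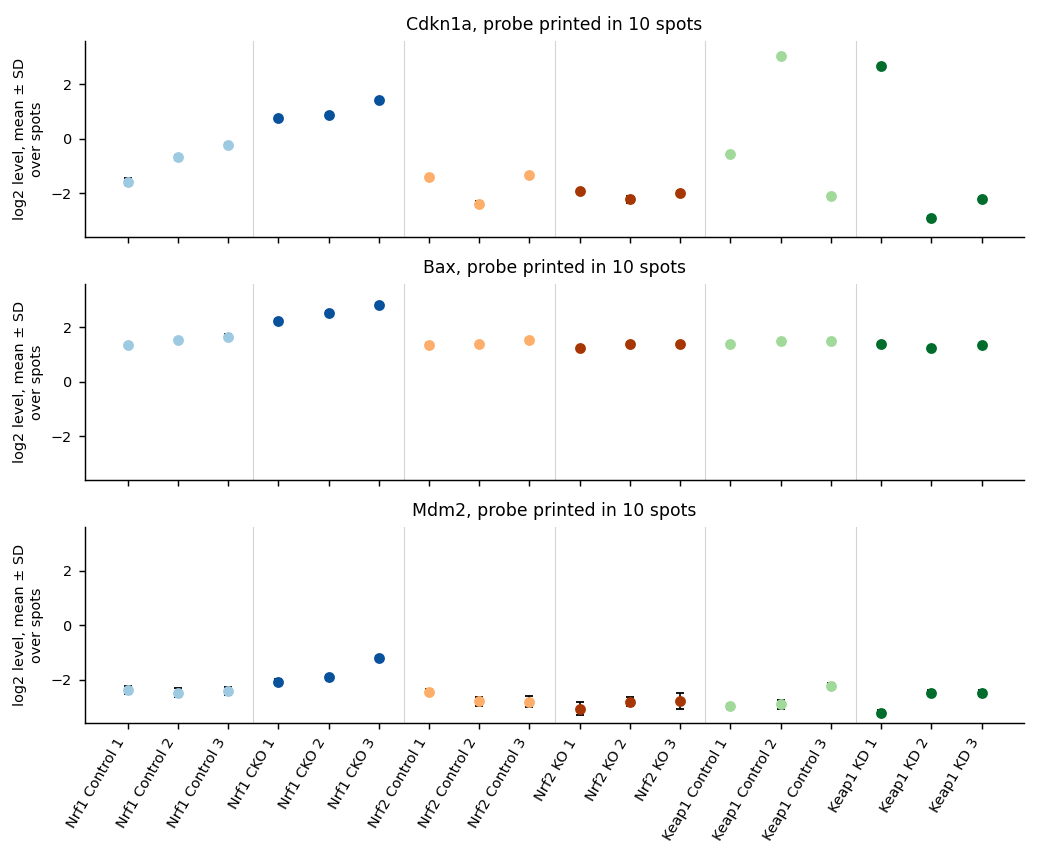
Level of Cdkn1a, Bax and a Mdm2 probe, each printed in 10 spots per array, on 18 arrays (x axis), as the mean and SD over spots of the log2 signal over the array's 75th percentile (y axis, same scale in the 3 panels). Error bars smaller than the point are hidden by it. The high points of Cdkn1a on Keap1 Control 2 and Keap1 KD 1 have no counterpart in Bax or Mdm2.

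The last comparisons tested whether the changes differed between lines. The change in Nrf1 CKO exceeded that in Nrf2 KO in 6 of the 10 genes and fell short of it in 0 (limma, adjusted p under 0.05; 7 and 0 at an unadjusted p under 0.05), where 3.02% of all genes were called higher and 2.58% lower. These genes were Mdm2, Ccng1, Phlda3, Bax, Eda2r and Tnfrsf10b. The change in Nrf1 CKO exceeded that in Keap1 KD in 5 of the 10 genes and fell short in 0 (8 and 0 at an unadjusted p under 0.05; 3.54% and 3.42% of all genes). These were Ccng1, Phlda3, Bax, Eda2r and Tnfrsf10b. Eda2r and Tnfrsf10b passed the filter through Nrf1 CKO alone and were below background on the probes used in the other lines, so their calls were built into the filter. Without them the counts were 4 of 8 and 3 of 8. Both sets of differences use the same 6 Nrf1 arrays, so they are not independent of each other. Nrf2 KO and its controls shared no slide or scan date, which also enters the differences from Nrf2 KO. Phlda3 had the smallest adjusted p in both, with a difference of 2.61 from Nrf2 KO (SE 0.39, adjusted p = 0.0035) and of 3.42 from Keap1 KD (SE 0.39, adjusted p = 0.000382).

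Ccng1 differed by 1.23 from Nrf2 KO (adjusted p = 0.0358) and by 1.13 from Keap1 KD (adjusted p = 0.0445), and each of these calls was lost under 15 of 27 alternatives. Zmat3 rose in Nrf1 CKO, but its change was not shown to differ from that in Nrf2 KO (1.39, SE 0.41, adjusted p = 0.059) or Keap1 KD (1.20, adjusted p = 0.0835), nor was that of Mdm2 from Keap1 KD (0.66, SE 0.26, adjusted p = 0.111). Between Nrf2 KO and Keap1 KD, 0 of the 10 genes differed (1 higher and 1 lower at an unadjusted p under 0.05, Trp53inp1 and Mdm2; 3.08% of all genes were called in either direction). With slide as a block 0 of 10 genes were called in either Nrf1 difference (6 higher and 0 lower in each at an unadjusted p under 0.05; 0.0282% and 0.0339% of all genes were called higher). With scan date as a block the counts of 6 and 5 became 1 (Eda2r) and 2 (Phlda3 and Bax). Apart from Eda2r and Tnfrsf10b, that block left 0 of 8 genes called against Nrf2 KO and 2 of 8 against Keap1 KD. Without Nrf1 Control 1 the counts of 6 and 5 became 3 and 2, and without Nrf1 CKO 2 or CKO 3 they became 4 and 2.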

How the data were processed

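Total RNA was labelled with Cy3 and hybridised to Agilent mouse arrays in a single colour, per the labels' protocols. Images were read with Agilent Feature Extraction 10.7.3.1 (protocol GE1_107_Sep09), and the deposited processed signal intensities were background-subtracted and detrended but not normalized between arrays, per the file headers. Raw median intensities of spots and background, and the flags for spots above background, saturated or outlying, are other deposited columns of the same output, per the file headers. The authors' series table held the same intensities at all 810324 entries compared.

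Outlier spots and 1639 control spots of 45018 were left out. The log2 intensities, computed here from the deposited values, were averaged over the spots of a probe, and log2 of the 75th percentile of that array's probe spots was subtracted. Symbols were found for 26718 of 41174 probes (64.9%) through accessions in the RefSeq gene table (GRCm38.p6). The headers name another build (mm9), so no probe coordinates are given. Testing took the 23554 probes that all 3 arrays of some group showed well above background, and each gene was read from its brightest such probe (17721 genes, each with a value on at least 70% of the arrays). For a group with no array above background, changes are lower bounds, written as at least N-fold.

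The fit used limma (3.58.1, R 4.3.3) with a mean for each of 6 groups over 18 arrays (12 residual and 3.08 prior degrees of freedom). P-values were adjusted by the Benjamini-Hochberg method across every gene tested in the comparison, and calls were made below 0.05. The script was tested on simulated data. Age, slide (7) and scan date (4) came from the labels and headers. The members and gene lists were chosen with earlier results of these data known, so lists are described by counts and medians. The text names all members, Trp53, Mdm4, called regulators, the 8 further targets of largest called change per comparison and up to 4 called genes of other lists. Names outside this rule are marked. Alternatives were other scalings (quantile, array median), normexp with an offset of 50 and quantile normalization on median signals (mean signals were not used here), other filters and probe choices, the authors' series table, the arrays of the compared lines only, an intensity trend, array weights, blocks for replicate number, slide and scan date, and each array left out in turn.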

Additional observations from a re-analysis of the deposited data

Results flagged for a closer look

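The fitted changes of several p53 targets differed between the Nrf1 line and the other lines by a test of the difference itself (limma, the mutant effect of one line minus that of the other, n = 3 in each of 4 groups). With slide as a block 0 of these differences passed the test against either line, and with scan date as a block 1 passed against Nrf2 KO (Eda2r) and 2 against Keap1 KD (Phlda3 and Bax). Against Nrf2 KO, the effect in Nrf1 CKO was larger for Phlda3 (2.61, SE 0.39, adjusted p = 0.0035), Mdm2 (1.22, SE 0.26, adjusted p = 0.0158) and Bax (1.11, SE 0.21, adjusted p = 0.0112), all on the log2 scale. Against Keap1 KD, it was larger for Phlda3 (3.42, adjusted p = 0.000382) and Bax (1.16, adjusted p = 0.0107). The Mdm2 difference from Nrf2 KO lost its call without Nrf1 Control 1 (adjusted p = 0.0501). A dimmer Mdm2 probe was not called in Nrf1 CKO (0.69, adjusted p = 0.073 over all probes tested).

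The differences of Ccng1, 1.23 from Nrf2 KO (SE 0.32, adjusted p = 0.0358) and 1.13 from Keap1 KD (adjusted p = 0.0445), each lost their call under 15 of 27 alternatives. The fitted differences of Eda2r (5.06 from Nrf2 KO and 3.57 from Keap1 KD) and Tnfrsf10b (2.92 and 2.99) are not measured sizes. Both genes passed the filter through Nrf1 CKO alone and were below background on the probes used in all other groups, so their calls were built into the filter and support nothing. The Eda2r call with scan date as a block is among these. Of the 8 other members, 0 passed against Nrf2 KO with that block. The 2 sets of differences share the Nrf1 arrays. Nrf2 KO and its controls shared no slide or scan date.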

How the results depend on the processing

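The 7 calls in Nrf1 CKO became 0 with slide as a block, where 1 control shares the slide of the CKO samples. Leaving out 1 array at a time gave 7 to 7, and no other alternative moved the count by over 1.5 times. The 6 calls against Nrf2 KO became 0 when slide, and 1 when scan date, was a block, and 3 to 7 with 1 array left out. The 5 calls against Keap1 KD became 3 with scaling to the array median, with no filter on background, with probes above background on all arrays (8 members tested) and with the arrays of the compared lines only, 0 when slide, and 2 when scan date, was a block, and 2 to 6 with 1 array left out. Slide as a block leaves fewer controls per slide, and the filter on all arrays leaves fewer members. Why the counts moved was not tested. No call reversed its direction under these alternatives. In Nrf2 KO and Keap1 KD the counts of members called were 0 under every alternative run. Dim signal limits Eda2r and Tnfrsf10b, which have a bound only. The 1 call left against Nrf2 KO with scan date as a block was Eda2r, whose call was built into the filter.

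Deviations from the group means of samples with the same replicate number correlated at −0.02 to 0.13 in the Nrf1 line, −0.08 to 0.05 in the Nrf2 line and −0.36 to 0.15 in the Keap1 line, so the numbers do not pair the samples. With the replicate number as a block 8 members were called in Nrf1 CKO (Trp53inp1 in addition, adjusted p = 0.049), 6 against Nrf2 KO and 6 against Keap1 KD. Array-median scaling moved the median of all genes in Nrf1 CKO from −0.09 to −0.20.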
